A study of Mus musculus with 6 samples.

Results

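The terminal complement pathway is described here from 7 genes of a NanoString immune panel: C6, C7, C8a, C8b, C8g, C9 and Cd59b. They were taken by symbol, and all 7 were among the 750 endogenous genes of the panel. The panel counts single RNA molecules by barcoded probes, and it was run on total RNA of 6 tumor samples. The tumors grew from BNL-MEA, a BALB/c mouse liver cancer cell line, after injection beneath the liver capsule, in the left lobe, of BALB/c males aged 6 to 7 weeks. In 3 samples, labelled PD-L1, the cells carried a PD-L1 expression plasmid (PD-L1 binds PD-1, an inhibitory receptor of T cells). In the other 3 samples, labelled empty plasmid, the cells carried the plasmid without that insert. Since the free-text description names PD-L1 expression for both groups, the groups rest on the titles and the treatment labels. Stable clones of both kinds were selected with G418. The clones differ between the groups, so effects of clone and of plasmid cannot be told apart. Separate mice are not named for the samples, so p-values reflect only how these samples vary, which may be technical.

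The terminal pathway is the last step of complement. After cleavage of C5, its fragment C5b binds C6 and then C7, and the complex inserts into a membrane with C8, to which copies of C9 are added to form a pore, the membrane attack complex. C8 is built from an alpha, a beta and a gamma chain, the products of C8a, C8b and C8g. CD59 is a membrane protein that blocks the addition of C9, and the mouse has a pair of genes for it, Cd59a and Cd59b. Hepatocytes make most of the circulating C6, C8 and C9.

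The members lie on 3 mouse chromosomes. C8a and C8b are neighbours on chromosome 4, with 0 protein-coding genes between them in RefSeq's annotation of GRCm38.p6. C6, C7 and C9 lie on chromosome 15, with 1 protein-coding gene between C6 and C7. Cd59b lies beside Cd59a on chromosome 2, where C8g lies too. Cd59a was not among the genes read here, and whether the Cd59b probe also binds its transcript is not stated in the sources used here. RefSeq's promoter windows, from 250 bases before to 50 bases after each annotated start, were searched on both strands for letters typical of 3 families of liver-enriched transcription factors. These were GTTAAT (a half-site of HNF1), TGTTTAC or TGTTTGC (FOXA) and TTGCNNAA (C/EBP), and no match overlapped another. Only windows that hold a match are shown, those of C8a, C8b and C9 and that of C7, which stayed near background. C6 and C8g varied across the samples together with C8a, C8b and C9, but their windows hold no match. Capitals mark the matches.

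C8a promoter, GRCm38.p6 chr4:104876349-104876648, minus strand: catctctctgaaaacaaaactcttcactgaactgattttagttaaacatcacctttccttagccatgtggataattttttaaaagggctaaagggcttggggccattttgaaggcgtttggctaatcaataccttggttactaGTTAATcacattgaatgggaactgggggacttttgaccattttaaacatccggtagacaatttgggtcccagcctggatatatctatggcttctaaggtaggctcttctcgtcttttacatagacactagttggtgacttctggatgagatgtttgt

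C8b promoter, GRCm38.p6 chr4:104766067-104766366, plus strand: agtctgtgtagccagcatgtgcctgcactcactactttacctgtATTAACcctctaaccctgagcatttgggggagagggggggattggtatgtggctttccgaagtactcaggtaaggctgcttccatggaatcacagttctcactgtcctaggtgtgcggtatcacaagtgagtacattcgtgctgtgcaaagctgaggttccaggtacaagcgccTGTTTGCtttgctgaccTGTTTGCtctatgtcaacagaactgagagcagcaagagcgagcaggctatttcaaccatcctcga

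C9 promoter, GRCm38.p6 chr15:6445096-6445395, plus strand: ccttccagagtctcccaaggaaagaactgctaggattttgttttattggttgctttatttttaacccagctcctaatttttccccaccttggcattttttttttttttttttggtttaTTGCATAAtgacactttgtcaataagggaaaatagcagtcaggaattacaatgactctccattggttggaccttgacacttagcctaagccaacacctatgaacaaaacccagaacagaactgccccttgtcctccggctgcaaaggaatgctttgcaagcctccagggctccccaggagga

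C7 promoter, GRCm38.p6 chr15:5063724-5064023, minus strand: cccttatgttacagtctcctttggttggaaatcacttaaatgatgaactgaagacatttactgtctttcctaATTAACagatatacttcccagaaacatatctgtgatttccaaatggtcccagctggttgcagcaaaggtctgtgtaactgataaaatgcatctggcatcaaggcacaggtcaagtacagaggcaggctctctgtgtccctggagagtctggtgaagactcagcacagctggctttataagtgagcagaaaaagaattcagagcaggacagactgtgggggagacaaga

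The C8a window holds the HNF1 letters 107 bases before the start. The C8b window holds them 206 bases before the start, on the opposite strand, and the FOXA letters at 32 and 15 bases before it. The C9 window holds the C/EBP letters 132 bases before the start. The window of C7 holds the HNF1 letters too, at 178 bases before the start on the opposite strand. Of all 32851 promoter windows, 7.1% hold the HNF1 letters, 8.48% the FOXA letters and 10.8% the C/EBP letters. The windows of C6, C8g and Cd59b hold none of these letters. A match of letters is a description of the sequence and does not show a bound site.

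The deposited values are log2 expression values that the authors had scaled per sample. Counts recovered from them totalled 1009717 to 1894819 over the endogenous and reference genes of a sample. The 8 negative control probes of a sample held 72 to 109 counts in all, and at most 17 to 25 on a single probe. Across genes, replicates within a group had r of 0.904 to 0.951 (genes are not independent replicates), and every pair of replicates differed by more than counting noise. Cd274, the gene for PD-L1, did not check the labels, since its values were 6.17, 5.36 and 5.87 in the PD-L1-labelled tumors, against 6.95, 5.32 and 7.43 in the empty-plasmid tumors (two-sided exact permutation p = 0.4). The groups are therefore called by their labels, and values per sample are given in the order of replicates 1 to 3. A gene was tested when its mean over the 6 samples reached 4.66, a limit set 2 SD above the negative controls' mean log2 value. This kept 541 of the 750 genes and 5 of the 7 members, C6, C8a, C8b, C8g and C9. C7 and Cd59b lay below it and are given as values only.

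All 5 tested members had a lower mean in the PD-L1-labelled tumors, and none passed the test. Of all 541 tested genes, 0% had an adjusted p under 0.05 in limma with Benjamini-Hochberg adjustment, and 59.9% had a lower mean in the PD-L1-labelled tumors. The members' median log2 difference, labelled PD-L1 minus labelled empty plasmid, was -3.54, beside -0.12 over all tested genes. At an unadjusted p under 0.05 limma counted 3 members as lower, C6, C8a and C8b, where 9.8% of all tested genes were so counted. The groups overlapped for each of the 5 members, while they did not overlap for 18.3% of all tested genes. The overlap came from the same pair of samples in each case: labelled PD-L1 replicate 3 stood above labelled empty plasmid replicate 1.

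**Figure D1:**
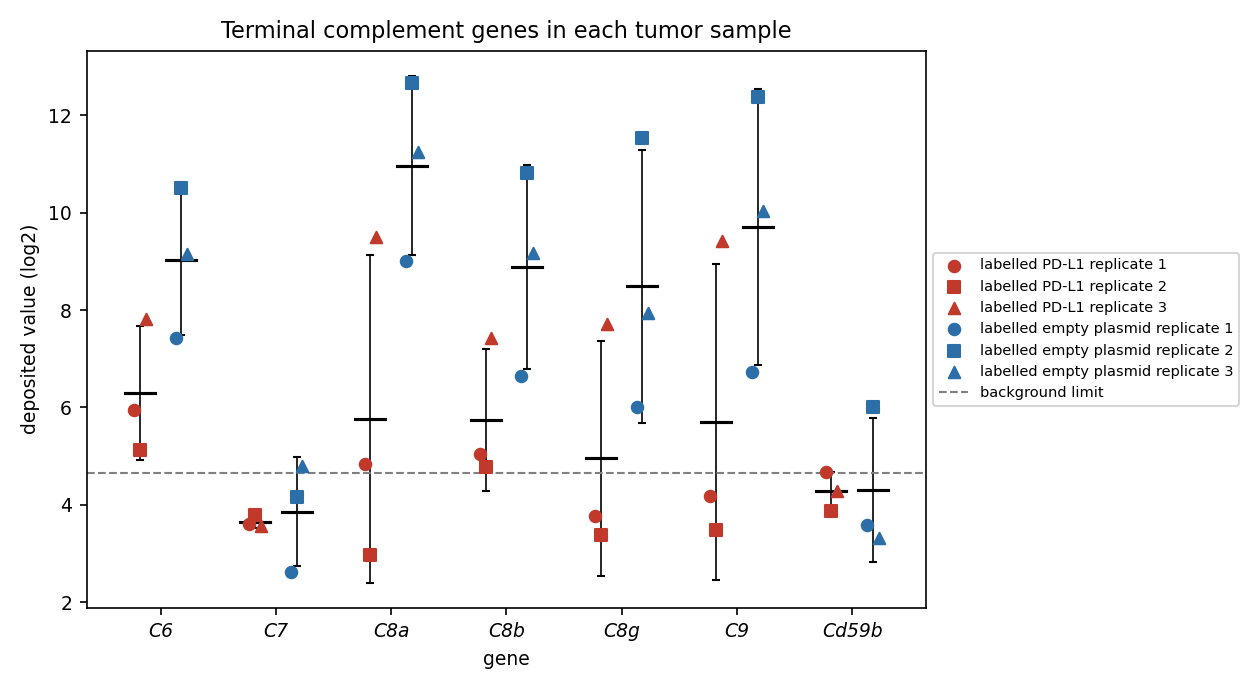
Deposited log2 values of the 7 terminal complement genes (vertical axis) in each of the 6 tumor samples, with replicates 1 to 3 as circles, squares and triangles, group means as horizontal bars and SD as error bars (n = 3 each). The dashed line is the background limit of 4.66. C6, C8a, C8b, C8g and C9 spread widely within both groups, and C7 and Cd59b lie near the limit.

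C6, which joins C5b first, had log2 values of 5.94, 5.13 and 7.81 in the PD-L1-labelled tumors, against 7.43, 10.50 and 9.16 in the empty-plasmid tumors. These rested on 82, 41 and 268 recovered counts in the PD-L1-labelled tumors, and on 289, 1308 and 1099 counts in the empty-plasmid tumors. C6 stood above the highest negative control in all 6 samples. The mean was 6.29 ± 1.37 in the PD-L1-labelled tumors and 9.03 ± 1.54 in the empty-plasmid tumors (SD, n = 3 each). The difference was -2.73 ± 0.96 (SE; 95% interval -5.03 to -0.44; adjusted p = 0.264, limma). The two-sided exact permutation p was 0.2, as it was for each of the other 4 tested members, where 3 samples against 3 cannot give a p under 0.1.

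C8a, the alpha chain of C8 and a pore-forming subunit, had the widest spread of the members. Its log2 values were 4.84, 2.97 and 9.49 in the PD-L1-labelled tumors, against 9.02, 12.66 and 11.24 in the empty-plasmid tumors. In counts it held 38, 9 and 863 in the PD-L1-labelled tumors, and 869, 5863 and 4652 in the empty-plasmid tumors. The 9 counts of labelled PD-L1 replicate 2 lay below that sample's highest negative control of 25, so the level there is not above background. The group means were 5.77 ± 3.36 in the PD-L1-labelled tumors and 10.97 ± 1.84 in the empty-plasmid tumors (SD, n = 3 each). The difference of -5.21 ± 1.74 (SE) had a 95% interval from -9.37 to -1.04 (adjusted p = 0.256, limma).

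C8b, the beta chain that docks C8 onto the growing complex, had log2 values of 5.05, 4.77 and 7.42 in the PD-L1-labelled tumors, against 6.66, 10.81 and 9.17 in the empty-plasmid tumors. Its counts were 44, 32 and 205 in the PD-L1-labelled tumors, and 169, 1626 and 1109 in the empty-plasmid tumors. It lay above the highest negative control in all 6 samples, as C6 did. Against a limit from each sample's own negative controls (mean plus 2 SD), C6 and C8b exceeded background in 5 samples. The exception for each was labelled PD-L1 replicate 2. The means were 5.75 ± 1.46 in the PD-L1-labelled tumors and 8.88 ± 2.09 in the empty-plasmid tumors (SD, n = 3 each). The groups thus differed by -3.13 ± 1.17 (SE; 95% interval -5.94 to -0.32; adjusted p = 0.291, limma).

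C8g, the gamma chain, is a lipocalin, a small binding protein unlike the other C8 chains, which share the pore-forming fold of C6, C7 and C9. Its log2 values were 3.77, 3.37 and 7.72 in the PD-L1-labelled tumors, against 6.01, 11.53 and 7.93 in the empty-plasmid tumors. In labelled PD-L1 replicates 1 and 2 it held 18 and 12 counts, not above the highest negative controls of 19 and 25 there, while the other 4 samples held 108 to 2679 counts. The means were 4.96 ± 2.41 in the PD-L1-labelled tumors and 8.49 ± 2.80 in the empty-plasmid tumors (SD, n = 3 each). The difference of -3.54 ± 1.68 (SE) had a 95% interval from -7.57 to 0.49, which includes 0 (adjusted p = 0.342, limma).

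C9, whose copies line the pore, had log2 values of 4.18, 3.49 and 9.43 in the PD-L1-labelled tumors, against 6.72, 12.37 and 10.04 in the empty-plasmid tumors. The counts were 24, 13 and 825 in the PD-L1-labelled tumors, and 177, 4781 and 2035 in the empty-plasmid tumors. Against each sample's own limit (mean plus 2 SD), C9 exceeded background in 4 samples, but not in labelled PD-L1 replicates 1 and 2. Labelled PD-L1 replicate 3 thus held more C9 than labelled empty plasmid replicate 1, by 2.71 on the log2 scale. The means were 5.70 ± 3.25 in the PD-L1-labelled tumors and 9.71 ± 2.84 in the empty-plasmid tumors (SD, n = 3 each). The groups thus differed by -4.01 ± 1.96 (SE; 95% interval -8.70 to 0.67; adjusted p = 0.343, limma).

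C7 and Cd59b had means below the background limit. C7, which gives the complex its hold on the membrane, had log2 values of 3.60, 3.78 and 3.57 in the PD-L1-labelled tumors, against 2.61, 4.16 and 4.79 in the empty-plasmid tumors. Its counts ran from 10 to 16 in 5 samples and reached 53 in labelled empty plasmid replicate 3, the only sample where it exceeded the highest negative control. Cd59b had log2 values of 4.68, 3.87 and 4.28 in the PD-L1-labelled tumors, against 3.59, 6.01 and 3.32 in the empty-plasmid tumors. Its highest count was 58, in labelled empty plasmid replicate 2, and the other samples held 17 to 34. It exceeded the highest negative control in 4 samples, labelled PD-L1 replicates 1 and 3 and labelled empty plasmid replicates 1 and 2. The exact permutation p was 0.7 for C7 and 1 for Cd59b. Against a limit from each sample's own negative controls (mean plus 2 SD), C7 exceeded background in 1 sample and Cd59b in 2. At this depth a low level in the other samples could not be detected.

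The log2 values of the 5 tested members ranked the 6 samples in 1 shared order. From high to low this was labelled empty plasmid replicate 2, labelled empty plasmid replicate 3, labelled PD-L1 replicate 3, labelled empty plasmid replicate 1, labelled PD-L1 replicate 1 and labelled PD-L1 replicate 2. For C8g the order of the last pair was not measured, since neither sample exceeded its highest negative control. By that limit the last sample has only an upper bound for C8a and C9. By each sample's own limit (mean plus 2 SD), C9 was not above background in the last pair either. Nor were C6 and C8b in the last sample. Of all 541 tested genes, 22 had this order (4.07%), the 5 members included. Together the members took 0.0178, 0.00966 and 0.22% of the endogenous counts in the PD-L1-labelled tumors, against 0.125, 1.86 and 0.56% in the empty-plasmid tumors. Within a group the highest of these shares was 22.8 times the lowest in the PD-L1-labelled tumors and 14.9 times the lowest in the empty-plasmid tumors. The span from the lowest to the highest sample was 9.70 on the log2 scale for C8a, 8.88 for C9, 8.16 for C8g, 6.04 for C8b and 5.37 for C6. Among the spans of all 541 tested genes these ranked 4, 7, 10, 22 and 27. For C8a, C8g and C9 the lowest sample was not above background, so the true span could not be measured. By each sample's own limit the same holds for C6 and C8b.

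Genes of liver tissue outside the complement system were read beside the members. Of 37 such genes listed, 8 were on the panel, all were tested, and all 8 had a lower mean in the PD-L1-labelled tumors. Those with the highest levels were Ambp, for a precursor of plasma proteins, the urea cycle gene Arg1, which macrophages express too, the secreted class I gene H2-Q10 and Tdo2, for an enzyme of tryptophan breakdown. Ambp had log2 values of 7.42, 6.92 and 12.64 in the PD-L1-labelled tumors, against 12.09, 15.34 and 13.76 in the empty-plasmid tumors. Arg1 did not follow the members, with log2 values of 11.06, 10.36 and 11.06 in the PD-L1-labelled tumors, against 7.65, 13.44 and 12.60 in the empty-plasmid tumors (exact permutation p = 1), and labelled empty plasmid replicate 1 was its lowest sample. The mean log2 level of the 8 genes was 6.30, 5.33 and 9.41 in the PD-L1-labelled tumors, against 8.17, 12.72 and 11.05 in the empty-plasmid tumors. Their summed linear level ran from 1670 to 12150 in the PD-L1-labelled tumors and from 6185 to 94420 in the empty-plasmid tumors. The 1670, of labelled PD-L1 replicate 2, is mostly Arg1, so it is not a measure of the other liver genes. No liver gene had a count of 0 in any sample, but in labelled PD-L1 replicate 2 only 3 of the 8 exceeded the highest negative control. The samples are bulk tissue, in which fewer cells of a type and less RNA per cell cannot be told apart. The RNA of host liver and that of the transfected cells cannot be told apart either, and the part of liver tissue in the members' differences was not tested.

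**Figure D2:**
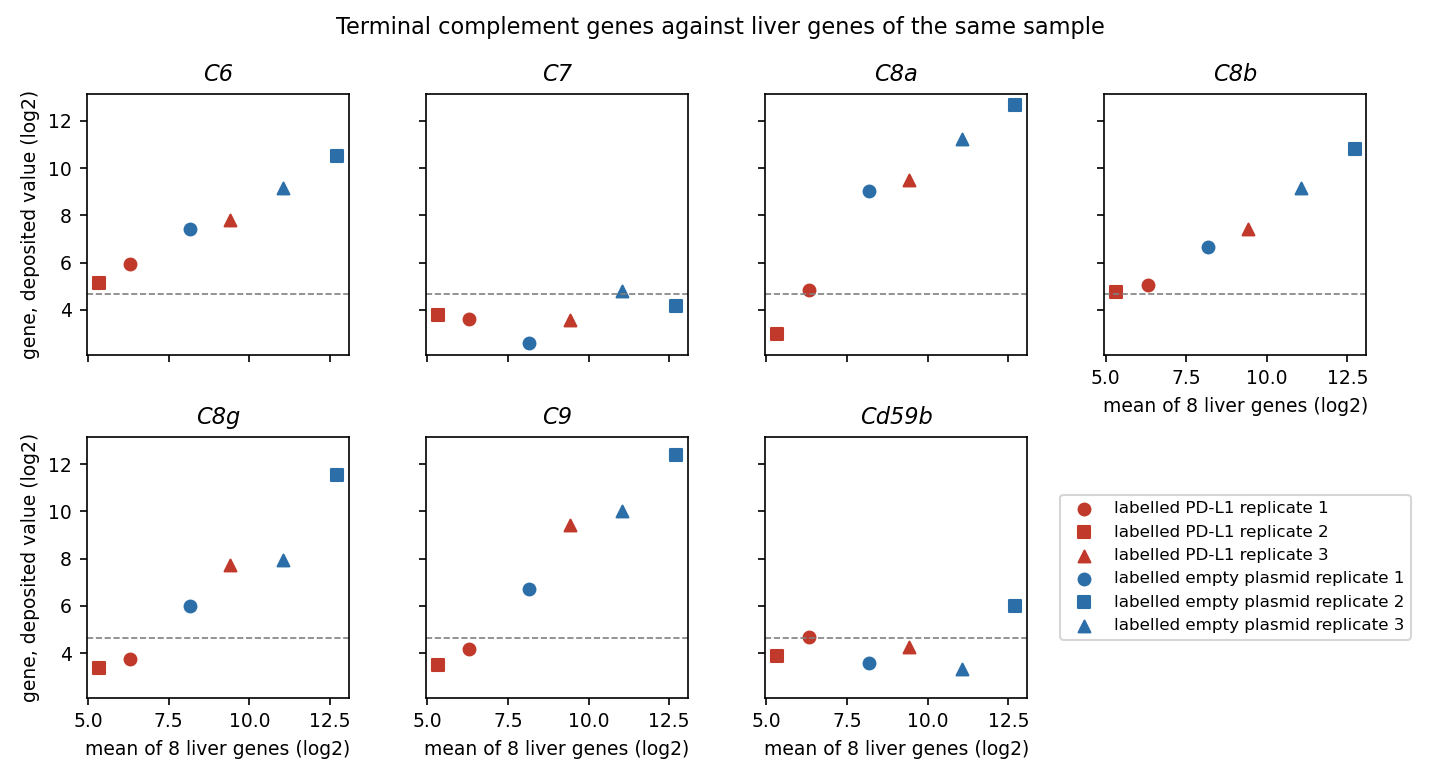
Deposited log2 value of each terminal complement gene (vertical axis) against the mean log2 value of 8 liver genes outside complement (horizontal axis), with 1 point per tumor sample and the background limit of 4.66 dashed. C6, C8a, C8b, C8g and C9 climb with the liver genes, from labelled PD-L1 replicate 2 at the left to labelled empty plasmid replicate 2 at the right, and C7 and Cd59b stay near the limit.

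Per unit of the liver genes' mean, the fitted slope over the 6 samples was 1.30 for C8a, 1.23 for C9, 1.06 for C8g, 0.83 for C8b and 0.70 for C6. A slope above 0.5 was found in 25 of the 541 tested genes (4.62%), and the median slope of all tested genes was 0.00. The 541 include the 8 liver genes that make up the mean and the 5 members, and without them the slope was above 0.5 in 14 of 528 genes (2.65%). C7 and Cd59b had slopes of 0.12 and 0.14. When only the 4 samples in which C8a, C8g and C9 all exceeded background were used, the slopes were 0.84 for C8a, 1.13 for C9, 1.10 for C8g, 0.94 for C8b and 0.70 for C6. The slope of C8a was thus lower without labelled PD-L1 replicates 1 and 2, and that of C6 was 0.70 with and without them.

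Taken relative to the liver genes of the same sample, the members no longer had 1 shared direction. C8a minus the liver mean was -1.47, -2.36 and 0.08 in the PD-L1-labelled tumors, against 0.85, -0.06 and 0.19 in the empty-plasmid tumors. In labelled PD-L1 replicate 2, C8a did not exceed the highest negative control, and only 3 of the 8 liver genes did. The -2.36 thus rests largely on values near background. The group difference of C8a minus the liver mean was -1.58 (exact permutation p = 0.2; adjusted p = 0.223 over the genes tested), and -1.02 with labelled PD-L1 replicate 2 left out. C6 minus the liver mean was -0.36, -0.19 and -1.61 in the PD-L1-labelled tumors, against -0.74, -2.22 and -1.89 in the empty-plasmid tumors, a difference of 0.90 (exact permutation p = 0.2; adjusted p = 0.223). The difference was 0.50 for C8b (exact permutation p = 0.4), 0.09 for C8g (p = 0.9 by the same exact test) and -0.38 for C9 (p = 0.6 by the same exact test). C8g and C9 did not exceed the highest negative control in labelled PD-L1 replicate 2 either, nor did C8g in labelled PD-L1 replicate 1. Set against only the 3 liver genes that were above the background limit in every sample (Ambp, Arg1 and Lbp), all 5 differences were below 0, from -2.83 for C8a to -0.36 for C6, so the directions of C6, C8b and C8g depend on the liver genes used. In that setting C8a and C8b had an exact permutation p of 0.1, the smallest possible, which 4.69% of the 533 genes compared reached. When Arg1 was also left out of those 3 genes, an alternative chosen after seeing the data, the difference was 0.63 for C6, 0.23 for C8b and -0.17 for C8g. None of the 5 members reached an exact permutation p of 0.1 with all 8 liver genes, where 5.63% of the 533 genes did. For a gene that does not follow the liver genes, the subtraction leaves mostly the liver mean reversed. The liver mean's own exact permutation p was 0.2. It is not read against the p of C8a and C6, which do follow the liver genes. Neither this 5.63% nor the 4.69% above is a background for members that climb with the liver genes. The adjusted p of 0.223 was taken over genes with the same liver mean subtracted. It is thus not read as a result about C8a or C6. With the liver mean as a covariate in limma, C8a differed by -1.01 ± 0.85, C6 by -0.36 ± 0.43 and C8b by -0.22 ± 0.50, while C8g and C9 differed by 0.59 ± 0.75 and 0.93 ± 0.56 (SE). The adjusted p of these 5 values lay between 0.80 and 0.942, and 0% of all tested genes passed in that fit.

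**Figure D3:**
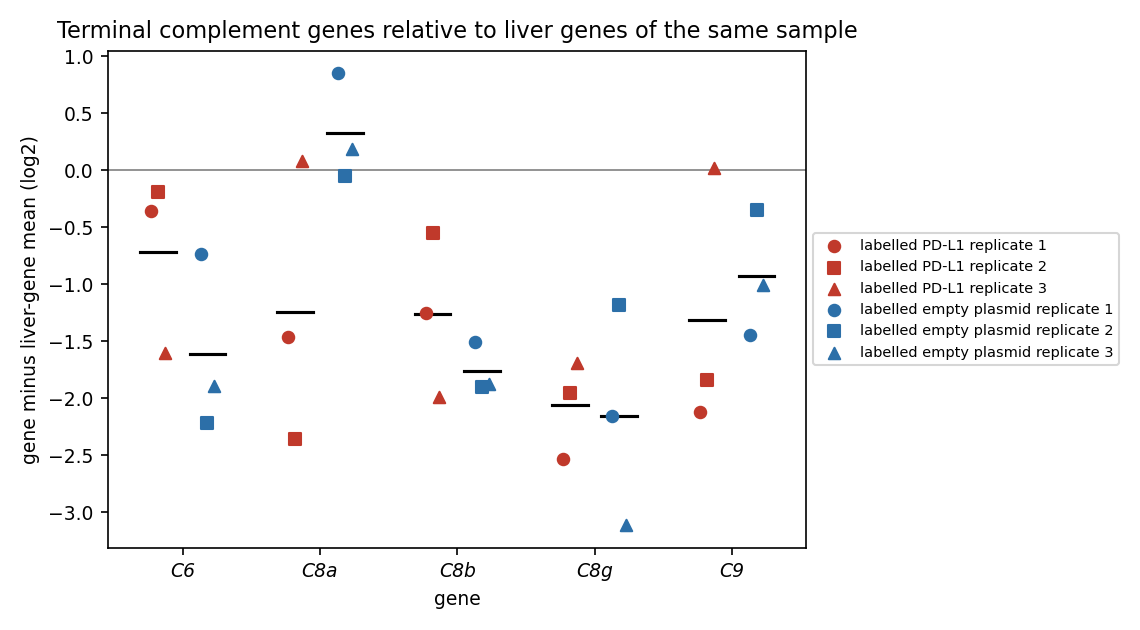
Log2 value of each tested terminal complement gene minus the mean log2 value of 8 liver genes in the same sample (vertical axis), by group, with bars at group means (n = 3 each). The groups overlap for all 5 genes, and the group difference runs from -1.58 for C8a to 0.90 for C6. C8a, C8g and C9 were not above the highest negative control in labelled PD-L1 replicate 2, nor was C8g in labelled PD-L1 replicate 1. By each sample's own limit (mean plus 2 SD), C9 was not above background in labelled PD-L1 replicate 1 either. Nor were C6 and C8b in labelled PD-L1 replicate 2.

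Within the C8 complex the alpha and beta chains were set against each other in each sample. C8a minus C8b on the log2 scale was -0.21, -1.81 and 2.07 in the PD-L1-labelled tumors, against 2.36, 1.85 and 2.07 in the empty-plasmid tumors. C8a was not above background in labelled PD-L1 replicate 2, so the value of that sample is not read. Among the 4 samples with more liver transcript the value stayed within 1.85 to 2.36, and it was lower in labelled PD-L1 replicate 1, where C8a held 38 counts and C8b 44, against a highest negative control of 19. C6 and C8b exceeded the highest negative control in all 6 samples, and C6 minus C8b ran between -0.31 and 0.89. The probes of different genes can differ in efficiency, so only the change of such a ratio between samples is read here, not its size.

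The genes outside this group that were most like the members, by Pearson's r of log2 values over the 6 samples, were mostly plasma protein genes. For C8a these were F12, for coagulation factor XII (r = 0.999), Ambp (r = 0.993) and H2-Q10 (r = 0.990). For C8b they were Masp2, a protease of the lectin pathway (r = 0.998), the hepcidin gene Hamp (r = 0.996) and Dpp4, for a surface peptidase (r = 0.994). C6 was most like Serping1, the C1 inhibitor (r = 0.995), Masp2 (r = 0.991) and Dpp4 (r = 0.989). C9 was most like the mannose-binding lectin gene Mbl2 (r = 0.996), Dpp4 (r = 0.991) and Hc, the mouse gene for C5 (r = 0.991). C8g was most like the acute-phase gene Saa1 (r = 0.994), Dpp4 (r = 0.988) and Mbl2 (r = 0.987). These values describe 6 samples that share a wide range of liver transcripts, and they carry no test.

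The earlier steps of complement were compared in the same fit. Of 10 genes of classical and lectin initiation, all of them tested, 8 were lower in the PD-L1-labelled tumors, with a median log2 difference of -1.09, and 0 passed. With single samples left out this median ran from -1.64 (without labelled empty plasmid replicate 1) to -0.60 (without labelled empty plasmid replicate 2). Crp, for C-reactive protein, differed by -3.68 ± 1.47, C2, for a convertase subunit, by -1.64 ± 0.66 and Masp2 by -2.83 ± 1.19 (SE, n = 3 per group). Masp2 lay below the background limit of 4.66 in labelled PD-L1 replicates 1 and 2, at 4.18 and 3.78. Crp lay below it in labelled PD-L1 replicate 2, at 4.17. The gene with the highest level in this list, C1qb, which macrophages make, differed by 0.33 ± 0.31. Of 4 tested genes of C3, C5 and the alternative pathway 3 were lower, with a median of -2.19, and 0 passed. Hc, the source of the C5b on which C6 assembles, differed by -4.06 ± 1.63, and C3, the central component, by -2.15 ± 0.89. Hc was 3.99 and 3.115 in labelled PD-L1 replicates 1 and 2, below the background limit of 4.66. The size of its difference thus rests on values near background. Cfp, for properdin, which leukocytes make, differed by 1.03 ± 0.38, and its groups did not overlap.

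Of 5 tested complement regulators described here all 5 were lower in the PD-L1-labelled tumors, with a median log2 difference of -0.47, and 0 passed. This median ran from -0.75 without labelled PD-L1 replicate 3 to -0.20 without labelled empty plasmid replicate 2. Serping1 differed by -2.05 ± 0.67 and Cfi, for the C3b-cleaving factor I, by -3.79 ± 1.84 (SE, n = 3 per group). Cfi was 8.78 in labelled PD-L1 replicate 1, but 3.49 in replicate 2, below the background limit of 4.66. Clu, for clusterin, which binds the terminal complex in plasma, had the highest level of this list and differed by -0.47 ± 0.55. Cd55, for a membrane regulator of the convertases, differed by -0.22 ± 0.54. Of 4 tested complement receptors all 4 were higher, with a median of 0.32, and 0 passed. The receptors' median was 0.51 when labelled PD-L1 replicate 1 was left out, and 0.10 when labelled empty plasmid replicate 2 was. C5ar1, the receptor of the fragment C5a that is released when C5b forms, differed by 0.87 ± 0.21, and C3ar1 by 0.35 ± 0.31. Itgb2, a chain of the complement receptor integrins, differed by 0.27 ± 0.27.

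**Figure D4:**
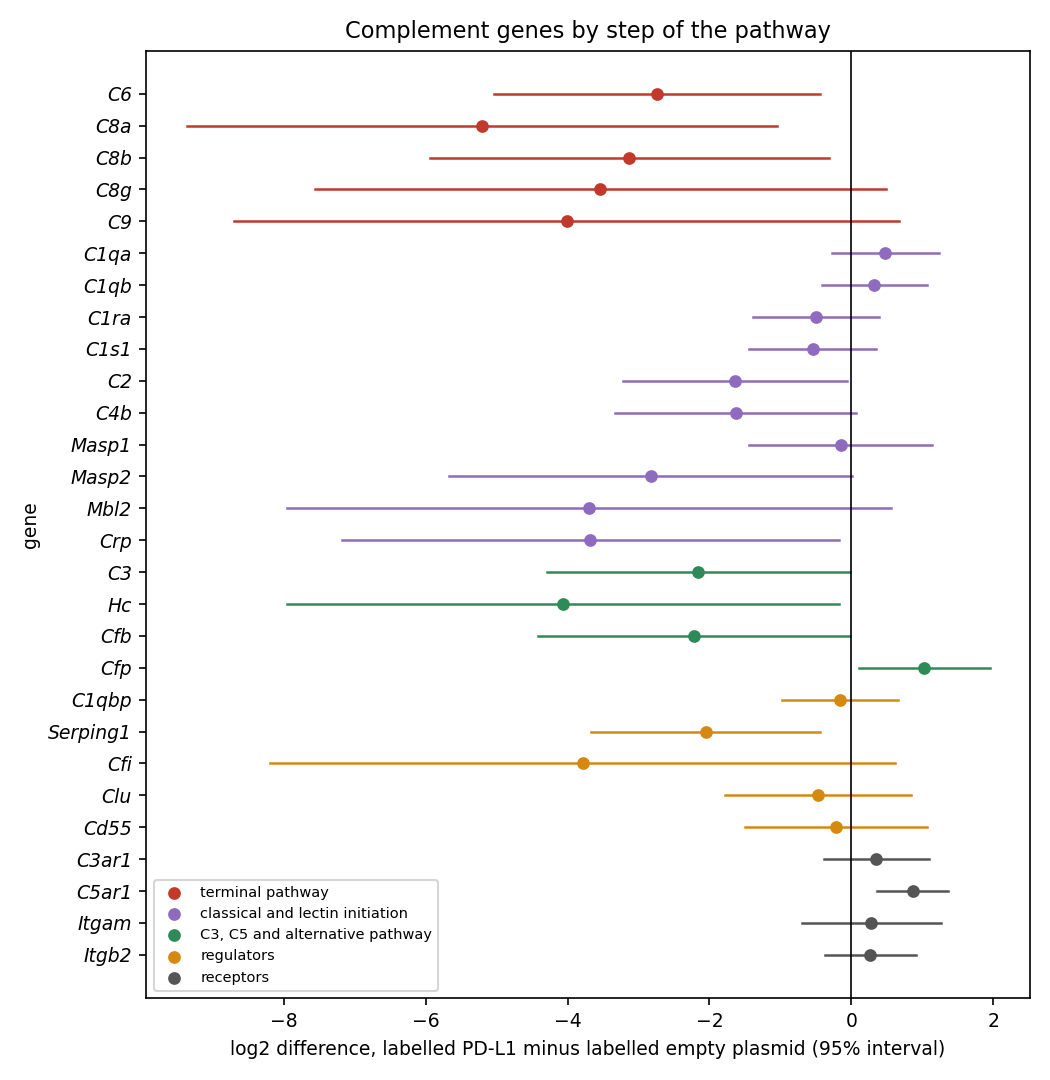
Log2 difference, labelled PD-L1 minus labelled empty plasmid (horizontal axis), with its 95% interval from limma, for the 5 tested terminal complement genes and the tested genes of the other complement lists (vertical axis, coloured by step; n = 3 per group). C8a at -5.21 and Hc at -4.06 lie furthest to the left, and the 4 receptors lie to the right of 0. Both C8a and Hc lay below the background limit of 4.66 in labelled PD-L1 replicate 2.

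Markers of other cell types were read beside these values. Macrophage genes were higher in 7 of 8 tested cases, where 59.9% of all tested genes were lower. Their list mean was 10.86 ± 0.61 in the PD-L1-labelled tumors and 9.66 ± 0.43 in the empty-plasmid tumors (SD, n = 3 each). The log2 differences were 3.68 for Cd163, 2.53 for Mrc1, 1.41 for Lyz2 and 1.02 for Msr1. Those of Marco, Cd68, Csf1r and Emr1 were 0.47, 0.39, 0.14 and -0.06. The summed linear level was 55780 to 153600 against 36620 to 47280, and Lyz2 made up most of it. The part of macrophages in the receptor values was not tested. Endothelial genes were lower in 9 of 9 tested cases, with a median log2 difference of -0.57. Of 7 fibroblast and stromal genes 4 were higher (median 0.20), and the list's samples overlapped. Of the neutrophil, T and natural killer, and B cell lists 3, 3 and 1 genes could be tested, with median log2 differences of 0.00, -1.05 and -0.27. The only mesothelial gene, Msln, was higher by 3.02, with no overlap. In all these lists 0 genes passed.

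Single samples moved the size of the members' differences, which all stayed below 0 with any single sample left out. With labelled PD-L1 replicate 3 left out, the difference of C8a was -7.07 ± 1.16 (SE) with an adjusted p of 0.111 in limma. Without labelled empty plasmid replicate 2 the difference of C8g was -2.02 and that of C9 was -2.68, against -3.54 and -4.01 with all samples. Subtracting the negative controls moved C8a to -6.36, C8g to -5.06 and C9 to -5.44, because it lowers the values that lie near background. The lowest of these values were set to a fixed floor, so the sizes depend on it. C6 and C8b moved less, to -2.99 and -3.52.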

How the data were processed

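RNA from 6 tumors was read on a NanoString panel, per the labels' protocols, and samples were grouped by their titles. The authors deposited log2 values, which they had scaled per sample. The software, the basis of the scaling and the genome build are not given in the sources used here. On the linear scale every value was a whole number times a factor (0.5188 to 1.107) plus 0.158, within a tolerance of 0.02, and those whole numbers are called recovered counts. No recovered count was below 1. The deposited data hold 2 tables with identical values for 770 genes, and the one with the control probes was used.

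Genes at or above the negative controls' mean plus 2 SD were fitted with limma 3.58.1 in R 4.3.3 (lmFit, eBayes with a trend, group as the only term) with Benjamini-Hochberg adjustment over 541 genes at 0.05. Two-sided exact permutation tests were run for single values. For values relative to the liver genes their p was adjusted over the 533 genes compared, in place of the members alone. The fit was tested on simulated data. The named genes were all members, the 3 genes of smallest p and the gene of highest mean in each other complement list, the 4 liver genes of highest mean, the 3 genes most like each tested member, and Cd274. Cd55, Msln, Lbp, F13a1 and the macrophage genes fall outside this rule and were chosen after their values were seen. One list entry is not reported here. The members and lists were chosen with earlier results of these data known. Of the members 6 matched RefSeq by accession and C7 by symbol. Alternatives covered scaling, trend, background, added constant, voom on recovered counts and the other deposited table. They also covered a replicate block, a liver covariate and leaving out each sample. Plots were made in python 3.11.15 with matplotlib 3.10.9.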

Additional observations from a re-analysis of the deposited data

How the results depend on the processing

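The 5 members' differences were recomputed under 18 alternatives each. Of these 90 values 88 kept their direction and stayed above the adjusted p threshold of 0.05, with adjusted p from 0.111 to 0.942. The exceptions came with the liver-gene mean as a covariate, where C8g turned to 0.59 and C9 to 0.93, and the members' median to -0.22. Direction could not change without the trend, with the other background limits, with the replicate block or with the other deposited table. These settings leave the group difference as it was. When single samples were left out, the members' median ran from -4.92 to -2.16, C6 from -3.53 to -1.998, C8a from -7.07 to -3.81, C8b from -4.24 to -2.16, C8g from -4.92 to -2.02 and C9 from -5.88 to -2.68. The count of genes passing was 0 under the alternatives, except 1 (F13a1) after centring on the reference genes. The count at an unadjusted p under 0.05 in limma was 92 in the fit as reported, 28 with the liver covariate, 38 when labelled PD-L1 replicate 2 was left out and 53 when labelled empty plasmid replicate 3 was. After centring on the sample medians the median of all genes was 0.04 in place of -0.12, and the members' median was -3.38.

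Of 60 values relative to the liver genes 52 kept their direction. Centring on the reference genes could not change such values, since it shifts a gene and the liver mean of a sample alike. With the liver list limited to the 3 genes above the background limit in every sample (Ambp, Arg1 and Lbp), the differences were -0.36 for C6, -0.76 for C8b and -1.16 for C8g. Leaving Arg1 out, chosen after seeing the data, turned C9 to 0.080 with the other 7 liver genes, and C8g to -0.17 with Ambp and Lbp alone. When single samples were left out, C8g ran from -0.39 to 0.58 and C9 from -1.05 to 0.023. The cause of these reversals was not tested. The 32 recomputed medians of the other complement lists kept their direction, but single samples moved 3 of the 4 by over 1.5 times, from -1.64 to -0.60 for classical and lectin initiation, from -0.75 to -0.20 for regulators and from 0.10 to 0.51 for receptors. Same-numbered samples correlated in their deviations from the group means with r of 0.274, -0.203 and -0.126 for replicates 1 to 3. With 3 samples per group, and genes that vary together, these values cannot decide whether the replicate numbers paired the samples. With a replicate block the differences were the same, with adjusted p of 0.292 for C6, C8a and C8b, 0.394 for C8g and 0.365 for C9, and 0 genes passed. Signal over background limits C7, Cd59b and the lowest samples of C8a, C8g and C9. By each sample's own limit it also limits the lowest sample of C6 and of C8b, and C9 in labelled PD-L1 replicate 1.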
